A study of Drosophila melanogaster with 2 samples.

Results

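The regions described here are the ChIP-seq peak summits of an inv-eGFP fusion protein that lay at single, non-divergent promoters of the Drosophila melanogaster autosomes. A summit was a member when it lay on arm 2L, 2R, 3L, 3R or 4 and within 500 bp of the annotated transcription start site (TSS) of a protein-coding gene. That nearest TSS was also required to have no TSS of another protein-coding gene diverging on the opposite strand within 1000 bp of it. The nearest gene was required to have all of its annotated TSSs within 1000 bp of each other. Of 3406 listed peaks, 3393 were on the 6 chromosome arms used here, 2757 of those on autosomes, 2187 of those within 500 bp of a TSS and 1094 of those not head to head. Among these, 788 met every criterion, 23.1% of the list, and they lay at 720 genes. Within the list, the rule used gene annotation and summit position only, not the height of a peak. The list itself had been thresholded by the authors, with a lowest score of 830. Its median signal was 132, against 19.4 for the 139890 peaks of the longer ranked list. Just inside the TSS distance were summits of AttD at 497 bp and RpL27A at 492 bp, with signals of 117.5 and 123.1, and just outside it were Dgat2 at 502 bp and Rcd2 at 505 bp, with signals of 87.6 and 266.7. The closest diverging TSS was 1006 bp away at the member CG5805 and 1000 bp away at Yod1, which was left out. The TSSs of the member Trp1 spanned 973 bp and those of hyx, which was left out, 1006 bp.

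The study was a single group of 2 biological replicates: chromatin of whole inv-GFP embryos aged 0 to 24 h, sonicated to 200 to 800 bp and precipitated with an anti-GFP antibody. Both replicates carried the tagged protein and were whole embryos, so the cell types and stages of that window are pooled. No untagged or mutant embryos were analysed here. Whether a given peak reports bound Invected or background of the precipitation was therefore not tested. A peak's signal is the value that the authors' peak caller wrote for it, on a scale with no counts behind it in these lists, so the sequencing depth is unknown. With 1 group there was no contrast to test, and every comparison below is a description.

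Invected is a homeodomain protein, the paralogue of Engrailed, and homeodomains of this class bind short AT-rich words built on TAAT. Promoters of genes that most cells use seldom carry a TATA box in flies. They often carry instead the DNA replication-related element (DRE), bound by DREF and overlapping the words bound by the insulator protein BEAF-32, or Motif 1, bound by M1BP, or an E-box or Motif 6. TATA boxes, and GAGA repeats, which the Trithorax-like protein binds, are better known from regulated promoters.

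The sequences shown first are upstream parts of strong members with the DRE, because this word was common at the summits and nearly lacking in their flanks. They come from RefSeq's Release 6 genome (the build of the deposited peaks, dm6), run 5′ to 3′ on the gene's strand within 50 bp of the summit, and stop before the TSS. Capitals mark TATCGATA, the DRE, which reads the same on both strands.
Sumo (chr2L:6967645-6967713, minus strand): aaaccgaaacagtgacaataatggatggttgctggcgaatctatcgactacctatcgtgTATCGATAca
Hsp110 (chr3L:14036931-14037018, plus strand): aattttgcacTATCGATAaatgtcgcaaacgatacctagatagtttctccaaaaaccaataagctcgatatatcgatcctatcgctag
Scsalpha1 (chr3L:3814131-3814210, plus strand): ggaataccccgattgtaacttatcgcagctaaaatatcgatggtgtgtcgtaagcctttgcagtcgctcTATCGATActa
Sumo encodes the small ubiquitin-like modifier, Hsp110 a chaperone of the heat-shock family and Scsalpha1 a subunit of succinyl-CoA synthetase.

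Several of the strongest members had no complete DRE but more than 1 copy of its inner word CGATA, or TATCG as it reads on the other strand, which is also the word recognised by BEAF-32. Capitals mark that word in 3 of the strongest members of this kind, with an upstream stretch of at least 60 bases outside annotated exons.
RhoGAP93B (chr3R:21097848-21097948, minus strand): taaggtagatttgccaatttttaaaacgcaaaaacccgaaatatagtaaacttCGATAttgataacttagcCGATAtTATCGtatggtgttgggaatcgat
CG11857 (chr3R:25258784-25258884, plus strand): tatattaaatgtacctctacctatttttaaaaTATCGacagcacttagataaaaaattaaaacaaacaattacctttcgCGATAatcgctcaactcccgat
CG11964 (chr3R:8945021-8945114, minus strand): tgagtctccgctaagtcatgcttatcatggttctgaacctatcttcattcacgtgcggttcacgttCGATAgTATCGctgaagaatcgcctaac
The choice of this short word was made after the sequences had been seen.

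Members with Motif 1 are shown next, with GGTCACACT or its reverse complement in capitals.
beta-PheRS (chr3R:24252680-24252754, minus strand): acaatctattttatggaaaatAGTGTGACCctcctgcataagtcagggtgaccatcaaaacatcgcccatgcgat
vib (chr3R:19226652-19226717, minus strand): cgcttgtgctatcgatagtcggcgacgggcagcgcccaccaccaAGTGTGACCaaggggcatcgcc
bc10 (chr3L:5565160-5565230, plus strand): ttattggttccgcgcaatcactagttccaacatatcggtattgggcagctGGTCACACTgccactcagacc
The gene beta-PheRS encodes a subunit of phenylalanyl-tRNA synthetase and vib a phosphatidylinositol transfer protein. The vib sequence also holds a DRE, in lower case here. A DRE also lies within 50 bp of the bc10 summit, outside the stretch shown.

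The last set shows strong members with an Engrailed-class core (TAATTA in capitals at Bka and Epg5), the word TATAAA (in capitals at eEF2) and repeated E-boxes (CAGCTG in capitals at CG9175).
Bka (chr2L:9895110-9895210, plus strand): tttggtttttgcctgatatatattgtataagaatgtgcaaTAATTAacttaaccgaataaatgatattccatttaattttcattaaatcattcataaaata
Epg5 (chr3R:18759005-18759105, minus strand): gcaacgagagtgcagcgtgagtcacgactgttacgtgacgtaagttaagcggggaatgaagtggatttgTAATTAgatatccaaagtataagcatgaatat
eEF2 (chr2L:21682165-21682242, minus strand): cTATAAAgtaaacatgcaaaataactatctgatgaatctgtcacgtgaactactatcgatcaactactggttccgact
CG9175 (chr2L:6098975-6099075, minus strand): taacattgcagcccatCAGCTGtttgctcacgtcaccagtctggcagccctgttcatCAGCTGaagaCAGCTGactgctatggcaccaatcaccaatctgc
Epg5 encodes an autophagy factor and eEF2 the translation elongation factor that moves the ribosome along the mRNA.

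Of the 8 words first searched, the DRE had the widest gap between summits and flanks. Within 50 bp of the summit, TATCGATA was present at 173 of 788 members (21.95%), against 0 in windows of the same size centred 500 bp upstream and 1 in those 500 bp downstream. Copies lay a median of 17.5 bp from the summit, with 59.0% within 20 bp of it, and a median of 35.5 bp upstream of the TSS. Copies were sought only within 50 bp of the summit. For the other words the medians were 22.5 to 29 bp, with 39.1% to 45.7% within 20 bp. The summits themselves lay a median of 35 bp upstream of the TSS. In the list of replicate 1 taken alone, 23.7% of 693 summits chosen by the same rule had TATCGATA, and in that of replicate 2 it was 26.3% of 483 summits. The word was therefore found in about the same share of summits in each replicate.

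Motif 1, searched as GGTCACACT on both strands, was present at 33 summits (4.19%), against 0 in the upstream and 2 in the downstream flanks. It lay a median of 3 bp upstream of the TSS, and 84.8% of the copies were on the strand of the gene. The E-box CAGCTG was present at 70 summits, against 23 upstream and 53 downstream flanks. The core of Motif 6, GTATNTTT on both strands, was present at 40 summits, against 34 upstream and 16 downstream flanks. Neither of these last words stood out from both flanks as the DRE and Motif 1 did.

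The words of the fusion protein's own class were less frequent at the summits than in the upstream flank and about as frequent as in the downstream flank. TAATTA was present at 29 summits (3.68%), against 67 upstream and 25 downstream flanks. TAATTG, searched on both strands, was present at 40 summits, against 73 upstream and 41 downstream flanks. TAATTA was present at 3.75% of summits in the list of replicate 1 and 5.59% in that of replicate 2, against flank means of 5.34% and 4.87%, so the order of summit and flank differed between the replicates. TATAAA was present at 87 summits, against 124 upstream and 40 downstream flanks, and GAGAG at 69 summits, against 71 upstream and 95 downstream flanks. None of the 8 words was present at 375 members (47.6%), whose median signal was 119.7.

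To set the members against promoters of the same architecture, all autosomal protein-coding genes meeting the rule's criteria for a gene were counted. There were 6580 such class genes, of which 710 (10.8%) had a member summit and 5852 had no listed summit within 500 bp. A promoter was the stretch from 250 bases before to 50 after the gene's most upstream TSS. In it, TATCGATA was present in 29.3% of class promoters with a member, 1.97% of class promoters without a listed summit and 9.36% of the promoters of all 13945 protein-coding genes. Motif 1 was present in 9.01%, 2.77% and 6.05% of the same 3 sets. GAGAG was present in 24.4%, 32.9% and 29.7%, and TATAAA in 45.2%, 47.8% and 45.8%. At 27 genes a peak of the longer ranked list, with a score of at least 830, met the rule for members but was not in the thresholded list.

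The remaining words differed less between these sets. CAGCTG was present in 19.0% of class promoters with a member, 14.7% of those without a listed summit and 17.7% of all promoters, and GTATNTTT in 16.3%, 12.1% and 14.9%. For TAATTA the shares were 20.3%, 19.4% and 20.4%, and for TAATTG 28.0%, 25.5% and 25.2%.

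**Figure D1:**
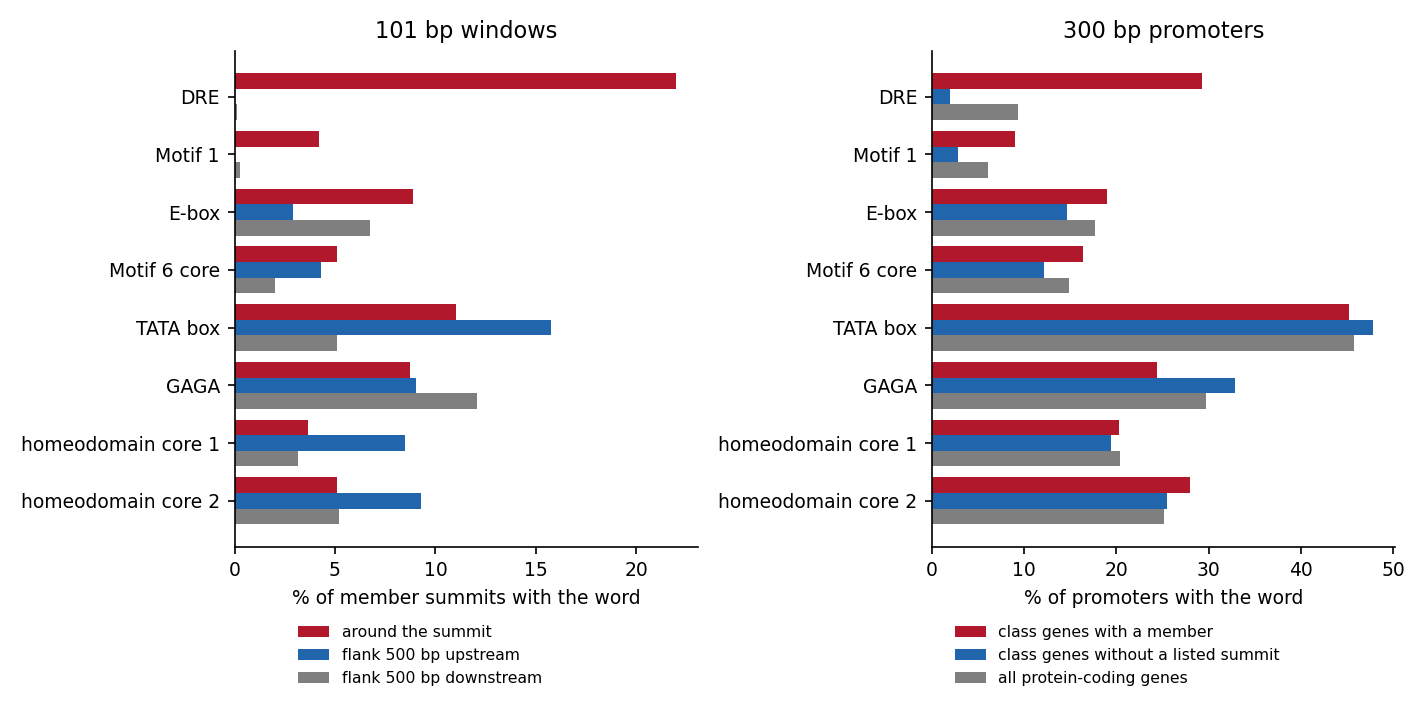
Left, percentage of the 788 member summits with each word (either strand) within 50 bp of the summit and in windows centred 500 bp upstream and downstream; right, percentage of promoters (250 bases before to 50 after the TSS) with the word in class genes with a member, class genes without a listed summit and all protein-coding genes. The DRE was present at 21.95% of summits and in 29.3% of member promoters, and homeodomain cores 1 (TAATTA) and 2 (TAATTG) were less frequent at summits than in the upstream flank.

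For TATAAA, promoters with and without a member differed more in the position of the word than in its presence. Positions were taken from the most upstream annotated TSS of each gene. A single TSS was annotated for 78.6% of class genes with a member and 88.65% of those without a listed summit. The effect of this difference on the positions was not tested. At 30 to 20 bp upstream of the TSS, the usual place of a working TATA box, TATAAA began in 3.52% of class promoters with a member and 8.22% of those without a listed summit. At 50 to 40 bp upstream, TATCGATA began in 4.09% of promoters with a member and 0.103% of those without. Just downstream of the TSS, within 10 bp, Motif 1 began in 1.27% and 0.427% of the same sets.

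**Figure D2:**
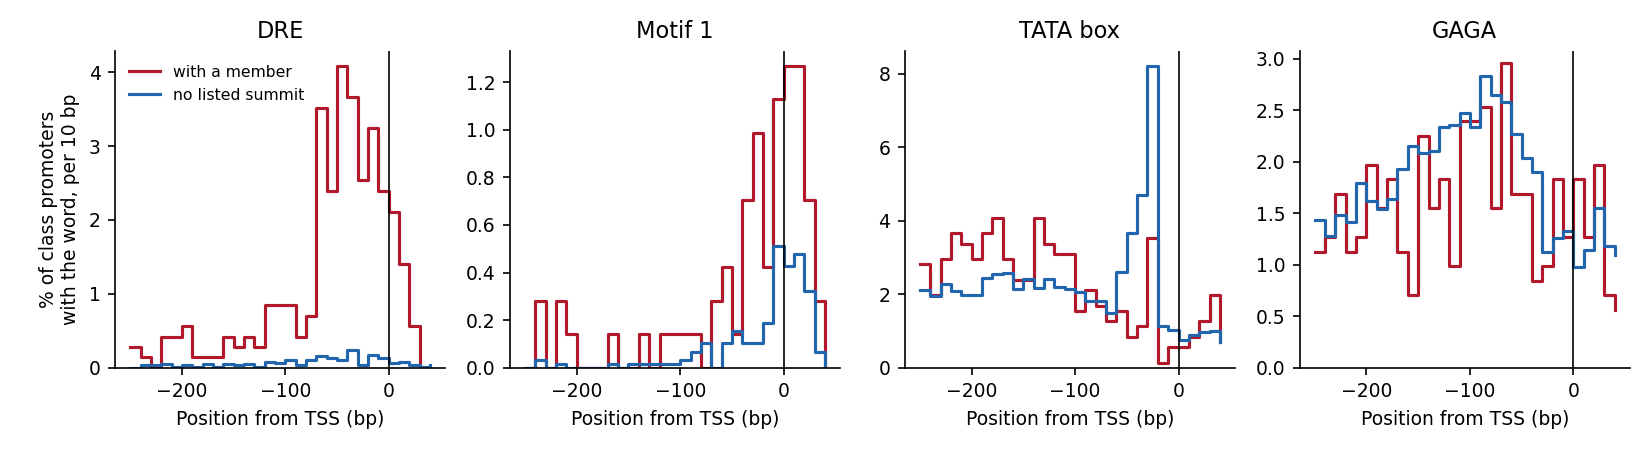
Percentage of class promoters in which each word begins, per 10 bp of distance from the gene's most upstream TSS, in promoters with a member (red) and without a listed summit (blue). The DRE and Motif 1 gather just upstream of and around the TSS in both sets, at higher shares in member promoters. The TATA box word, TATAAA, has a local peak about 30 bp upstream in both sets. It is higher without a listed summit (8.22% per bin, against 3.52% with a member).

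Read from the word to the summit, 208 of 328 class genes with TATCGATA in the promoter had a member (63.4%), against 502 of 6252 without it (8.03%). For Motif 1 the counts were 64 of 226 genes with the word (28.3%) and 646 of 6354 without it (10.2%). For the other 6 words the share with a member lay between 8.22% and 14.0%, close to the 10.8% of all class genes. Of the 115 class genes with a DRE and no listed summit, 90 (78.3%) had a peak within 500 bp in the longer ranked list of unthresholded peaks, with a median signal of 39.9. Of the 5737 genes with neither, 74.3% had one, with a median signal of 29.2. A ranked peak was thus about as common at class genes without a listed summit whether or not they held the DRE. The ranked list is dense, with 136905 peaks on the arms, so most promoters had one and these shares could show little difference.

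The share of class genes with a member was higher with each added copy of the shorter word CGATA in the promoter. It was 4.40% of 3930 genes with 0 copies, 7.54% of 1604 with 1 copy, 22.9% of 594 with 2 copies and 61.9% of 452 with 3 or more. A single TATCGATA counts as 2 copies here. Promoters with 3 or more copies made up 39.4% of class promoters with a member, 2.80% of those without a listed summit and 12.6% of all promoters. In promoters without TATCGATA the share was 21.1% of 512 genes with 2 copies and 48.5% of 206 with 3 or more. In the list of replicate 1 the shares from 0 to 3 or more copies were 3.74%, 6.61%, 22.1% and 57.3%, and in that of replicate 2 they were 1.58%, 3.43%, 15.7% and 50.9%. Both replicates gave the same order.

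**Figure D3:**
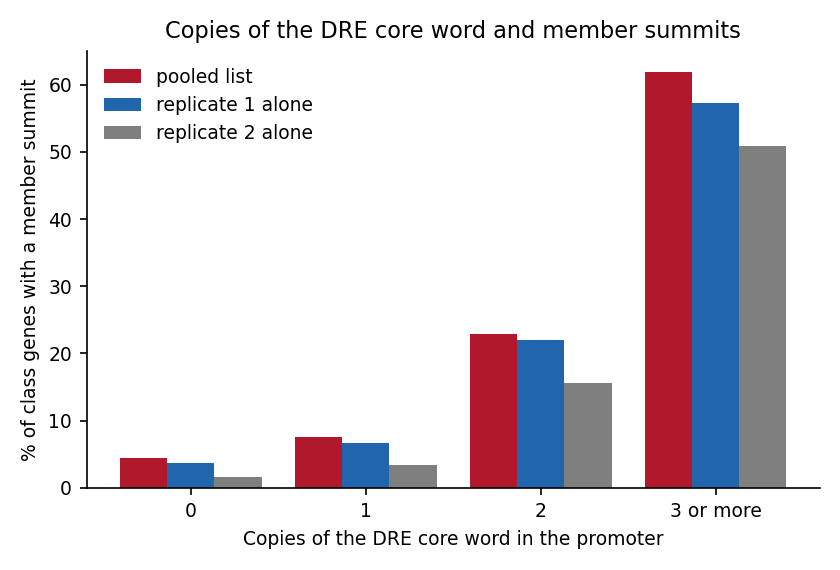
Percentage of class genes with a member summit by the number of copies of CGATA (either strand) in the promoter, in the pooled list and in the list of each replicate alone. The share is higher at each step, reaching 61.9% in the pooled list, 57.3% in replicate 1 and 50.9% in replicate 2 at 3 or more copies.

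At the summits themselves, 343 members (43.5%) had 2 or more copies of CGATA, against 0.635% of upstream and 0.761% of downstream flanks, and 186 (23.6%) had 3 or more, against 0 in either flank. Among the 615 members without TATCGATA, 170 (27.6%) still had 2 or more copies, against 0.163% of upstream and 0.650% of downstream flanks. Of the 12 strongest members, 10 had 2 or more copies, and Pp2A-29B and Jwa had 0. The word was chosen after sequences of some of these members had been seen, so this count is no support for it.

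Members with these words had higher signals. For CGATA this only describes the data, as the word was chosen after sequences of strong members had been seen. Members with 2 or more copies of CGATA had a median signal of 236.7, against 85.5 for the 307 members with 0 copies. By replicate the medians were 170.1 and 62.8 in replicate 1, and 82.2 and 42.2 in replicate 2, for the same 2 sets. Listed peaks of both replicates were overlapped by 74.3% of members with 2 or more copies and 32.2% of those with 0. The 167 members with a DRE and no Motif 1 had a median signal of 236.7, the 27 with Motif 1 alone 209.7, the 6 with both 200.1 and the 588 with neither 118.5. The 69 members with GAGAG had a median of 97.2 and the 29 with TAATTA one of 209.6.

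The members whose sequences are shown had peaks in both replicates. With a DRE, Hsp110 had a signal of 843.5 in replicate 1 and 284.8 in replicate 2, and Scsalpha1 had 805.0 and 281.8. With Motif 1, beta-PheRS had 440.6 in replicate 1 and 112.4 in replicate 2, vib 292.0 and 148.8, and bc10 311.7 and 46.1. The vib and bc10 summits also had a DRE. With TAATTA, Epg5 had 653.1 in replicate 1 and 332.5 in replicate 2, and Bka 456.8 and 389.0. In all of these replicate 1 was higher, and the 2 values were closest at Bka. The thresholded lists as a whole also differed, with median signals of 102.8 in replicate 1 and 81.1 in replicate 2. Their highest signals were 2344.0 and 847.3. Over the ranked lists the medians were 12.7 and 12.9. The eEF2 summit, with the word TATAAA, had 389.7 in replicate 1 and 166.7 in replicate 2, and CG9175, with 3 E-boxes, had 484.5 and 144.5.

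The signal of the members ranged from 2.63 to 1965.8, with a median of 139.6 and quartiles of 84.1 and 294.6. In each replicate's own ranked list, the strongest peak overlapping a member had a median signal of 97.5 in replicate 1 and 60.3 in replicate 2. Both values could be had for 768 members, and their rank correlation was 0.71 (Spearman, over members, a description). These points share the pooled peak that chose them, and 63 members overlap a stronger listed peak and can share its replicate values. A listed peak of both replicates was overlapped by 423 members (53.7%), close to the 50.5% of all listed peaks on the arms, while 215 were in replicate 1 only, 50 in replicate 2 only and 100 in neither. All of the 100 strongest members were in both replicates.

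**Figure D4:**
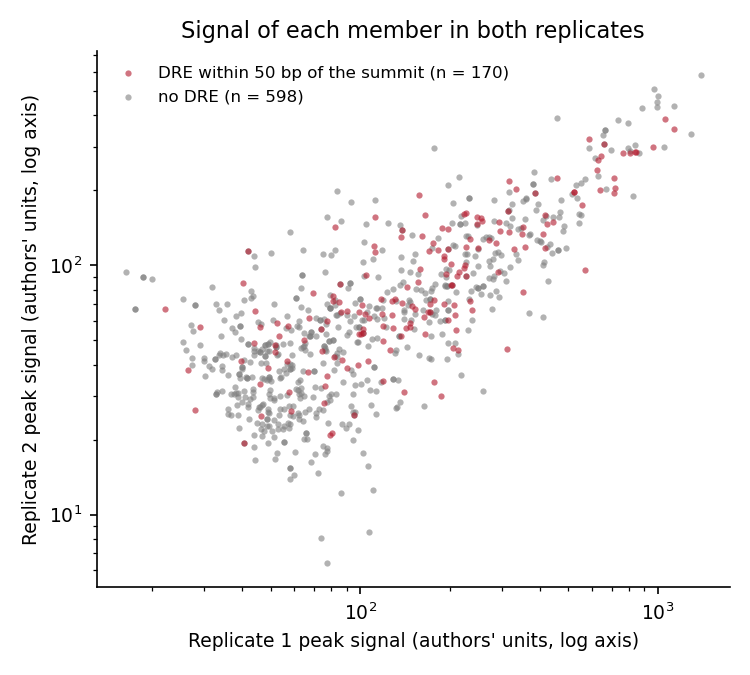
Signal of the strongest overlapping peak in replicate 1 (x axis) and replicate 2 (y axis), both on log axes in the authors' units, for the 768 members with a value in each; red points have a DRE within 50 bp of the summit. The strong members lie along 1 band with replicate 1 higher, and the weak ones scatter more widely.

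The strongest members were spread over 4 arms, and in each of the 12 the signal was higher in replicate 1. The highest signal of the whole list was also higher in replicate 1 (2344.0, against 847.3 in replicate 2). RhoGAP93B on 3R had a pooled signal of 1965.8, with 1392.8 in replicate 1 and 580.2 in replicate 2. The jagn summit on 3R, at a gene for a protein of the endoplasmic reticulum, had 1645.2, with 1290.1 in replicate 1 and 335.9 in replicate 2. Pp2A-29B on 2L, the scaffold subunit of protein phosphatase 2A, had 1489.0, with 996.1 in replicate 1 and 480.7 in replicate 2. These 3 promoters differed in their sequence: none had a DRE at the summit, RhoGAP93B and jagn had 3 and 2 copies of CGATA, and Pp2A-29B had 0. Capr, the RNA-binding protein Caprin, had 971.6 in replicate 1 and 511.2 in replicate 2, and Pym, a partner of the exon junction complex, had 1129.1 and 352.6. Sumo had 1050.7 in replicate 1 and 387.1 in replicate 2, and RpS2, a protein of the small ribosomal subunit, had 883.1 and 430.2. The other 5 (CG8613, CG11857, Jwa, CG11964 and Creld) had 964.9 to 1132.8 in replicate 1 and 297.9 to 452.5 in replicate 2. Summits of the 12 lay from 127 to 7 bp upstream of the TSS, so that all 12 were upstream.

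At the other end, the weakest members were grn, CG6689 and CG6845, with pooled signals of 2.84, 2.80 and 2.63. Each overlapped a stronger listed peak. Of 54 members below a signal of 50, 53 overlapped a stronger listed peak. Without the 63 members that did so, the other 725 had a median signal of 156.8, and 73.0% of them lay upstream of the TSS.

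Summits lay mostly just upstream of the start site. The median position was 35 bp upstream, with quartiles at 77 bp upstream and 5 bp downstream, 563 summits (71.4%) were upstream and 559 (70.9%) within 100 bp. Split into 5 bins by signal, 91.1% of summits in the bin of highest signal were upstream, and in the following bins 82.8%, 74.7%, 61.1% and 47.5%. The DRE share in the same order was 29.7%, 37.6%, 25.3%, 12.1% and 5.06%, and the share in both replicates was 99.4%, 89.8%, 51.9%, 10.2% and 17.1%. GAGAG ran the other way, at 1.27%, 6.37%, 8.86%, 15.9% and 11.4%. TAATTA was at 6.33%, 3.185%, 4.43%, 3.185% and 1.27%, from 10 summits in the highest bin to 2 in the lowest. Its flank means in the highest and lowest bins were 5.70% and 6.01%. The weakest bin was thus split about evenly around the TSS, rarely held a DRE and was seldom found in both replicates. It includes the 54 members below a signal of 50, of which 53 overlapped a stronger listed peak. Those can share the replicate overlap of that peak, and how far they shape the bin's values was not tested.

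**Figure D5:**
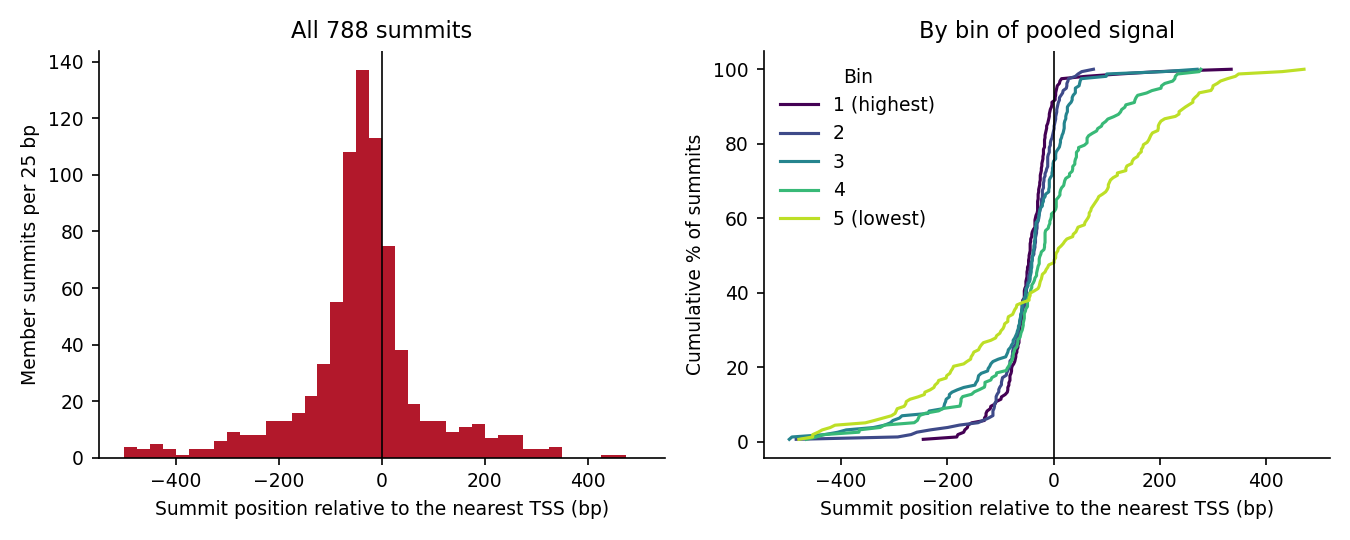
Left, number of the 788 member summits per 25 bp of distance from the nearest TSS, negative values being upstream; right, cumulative percentage of summits along the same axis for 5 bins of pooled signal (bin 1 the highest). The highest bin has 91.1% of its summits upstream of the TSS and the lowest 47.5%.

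Against the promoter summits that the rule left out, the members were intermediate in signal, replicate overlap and position. Their median signal of 139.6 compared with 108.0 for 306 autosomal summits at genes with alternative promoters, 186.6 for 1093 at divergent promoters and 174.7 for 560 promoter summits on the X. Listed peaks of both replicates were overlapped by 53.7% of members, 43.8% of summits at alternative promoters, 65.2% at divergent promoters and 63.0% on the X. Upstream positions made up 71.4%, 63.7%, 75.8% and 79.3% in the same order. The DRE was present at 21.95% of members, 11.8% of alternative, 20.8% of divergent and 23.9% of X promoter summits, and at 4.18% of 646 summits over 500 bp from a TSS. In the share with a DRE the members were thus close to divergent and X promoters and above genes with alternative promoters, by counts that were not tested.

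Members were spread evenly over the large arms. Arm 2L held 175 of them, 2R 190, 3L 182, 3R 232 and chromosome 4 the other 9. The share of class genes with a member was 10.8% for 2L, 10.5% for 2R, 10.9% for 3L and 10.7% for 3R, against 10.8% of all class genes. On chromosome 4, the small and largely heterochromatic autosome, 8 of 41 class genes (19.5%) had one, a difference from the other arms that rests on few genes and was not tested. Its strongest members were PlexB, a semaphorin receptor, with 432.2 in replicate 1 and 121.5 in replicate 2, PMCA, a calcium pump, with 209.9 and 55.1, and Actbeta, an activin ligand, with 213.3 and 44.2. Of the 9 members there, 4 had a DRE.

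Most genes held a single member: 653 had 1, 66 had 2 and BEAF-32 alone had 3. BEAF-32, the gene of the insulator protein that recognises CGATA, had summits 334 bp downstream, 20 bp upstream and 107 bp upstream of a TSS, with pooled signals of 611.0, 473.5 and 64.0. In replicate 1 these had 490.1, 415.4 and 83.4, and in replicate 2 they had 117.2, 103.2 and 43.1. All 3 overlapped listed peaks of both replicates.

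Genes with a member differed from other class genes in structure as well as in their words. Their median length was 2795 bp, against 1664 bp for class genes without a listed summit, and 9.44% had 1 exon only, against 20.7%. The upstream neighbour lay on the same strand in 73.4% of them, against 55.8%, and the median gap to such a neighbour was 316 bp, against 571.5 bp. The TSS was inside another gene in 7.75%, against 21.0%. The promoters' median GC content was 35.3%, against 38.7%, and 29.6% of the genes had only a CG number for a symbol, against 53.6%.

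Gene lists were read against the 10.8% of all class genes with a member. Among genes of protein synthesis, 13 of 29 class genes for cytosolic ribosomal proteins (44.8%), 4 of 13 for mitochondrial ribosomal proteins, 5 of 20 translation initiation factors and 2 of 10 aminoacyl-tRNA synthetases had one. RpS2 was the strongest ribosomal protein gene. RpS30 had a signal of 513.5 in replicate 1 and 192.9 in replicate 2, and RpS29, with a DRE, 411.6 and 134.0. The ribosomal protein members were not uniform: 7 of 13 overlapped listed peaks of both replicates and the other 6 did not. The initiation factor eIF3f1, also with a DRE, had 708.6 in replicate 1 and 225.0 in replicate 2, the cap-binding protein eIF4E1 had 239.6 and 93.5, and eIF6 had 214.9 and 93.9. The tRNA synthetase AspRS-m, with Motif 1, had 334.5 and 110.6.

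Genes of the DNA replication machinery had a member at 7 of 11 class genes (63.6%), a small list. PolA1, the catalytic subunit of DNA polymerase alpha, had 521.0 in replicate 1 and 196.8 in replicate 2, with a DRE. RfC3, a clamp loader subunit, had 177.5 and 295.9, so that it was higher in replicate 2, unlike the 12 strongest members. PCNA, the sliding clamp, whose promoter is a classical DREF target, had a DRE and 186.5 in replicate 1 and 29.9 in replicate 2, and was listed in replicate 1 only. The other 4 members of the list had pooled signals of 72.1 to 156.5. Of the 7, 3 overlapped listed peaks of both replicates.

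The secretory pathway had a member at 11 of 28 class genes (39.3%), and 10 of the 11 overlapped listed peaks of both replicates. Rab11, a GTPase of recycling endosomes, had 316.1 in replicate 1 and 166.9 in replicate 2. Sar1, the GTPase of COPII coats, had 410.3 and 62.3, and gammaCOP, a COPI subunit, had 246.6 and 145.8. Of the 11, 2 had a DRE.

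Among the other lists of general functions, counts were 5 of 19 proteasome subunits, 7 of 21 general transcription factors, RNA polymerase and Mediator subunits, 5 of 34 respiratory chain and ATP synthase subunits and 1 of 5 spliceosome genes, led by CG10418 with a pooled signal of 301.3. Rpn10, the ubiquitin receptor of the proteasome, had 629.0 in replicate 1 and 229.2 in replicate 2. COX4, a cytochrome c oxidase subunit, had 119.6 and 49.8 and held TATCGATA, GGTCACACT and TATAAA at its summit. The TATA-binding protein gene Tbp had 64.9 in replicate 1 and 50.1 in replicate 2, and a DRE.

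Among developmental regulators, where Engrailed-class proteins are best known to act, 5 of 25 class genes of segmentation had a member, 1 of 3 Hox genes and 6 of 39 other homeobox genes. The en summit, at the paralogue of the tagged gene, lay 24 bp downstream of the TSS and had 84.0 in replicate 1 and 56.4 in replicate 2. The T-box gene mid had 83.0 and 63.0. Both were listed in both replicates. The Naked cuticle gene nkd had 70.3 in replicate 1 and 17.5 in replicate 2, the Hedgehog receptor gene ptc 55.5 and 19.5, and the zinc finger gene odd 47.0 and 23.2. Of these 3, nkd was listed in replicate 1 only, and ptc and odd in neither.

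Of the 6 members in the list of other homeobox genes, which leaves out en and the Hox genes, tin, the heart regulator tinman, had 74.8 in replicate 1 and 110.7 in replicate 2 and was the single one listed in both. The eye gene eyg had 106.7 in replicate 1 and no overlapping peak in replicate 2. The vis summit, with a DRE, had 52.6 and 58.7. In the Hox list, Ubx had 70.7 and 32.5 and was listed in neither. Among the other homeobox genes, caup had 61.6 and 34.0, lbe 72.8 and 26.6, and vvl 49.5 and 35.1. Over these 12 developmental regulators the replicate 1 signal was at most 106.7. Of the lists of late or tissue-limited genes, 0 of 115 class genes for cuticle proteins, 0 of 123 for chemoreceptors and 0 of 7 for yolk and chorion proteins had a member.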

How the data were processed

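Chromatin of 2 biological replicates was immunoprecipitated with anti-GFP; control libraries are not analysed here. The deposited peak lists, on dm6 per the labels, hold for each peak a signal and a score (up to 1000) written by the authors' peak calling and IDR (irreproducible discovery rate) ranking, beside other columns with its start, end and summit. No source used here gives the authors' tool versions. The larger pooled thresholded list was the main one. The authors' conservative list and each replicate's thresholded list (lowest score 830) were alternatives. Per-replicate signals come from each replicate's ranked list (overlap of at least 1 bp). Read depth is unknown, so no counting interval can be given.

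Summits were assigned to TSSs of Ensembl release 115, and words were searched on both strands of RefSeq's Release 6 genome with Python 3.11.15, numpy 2.4.6, scipy 1.17.1 and pandas 2.3.3. These steps were tested on simulated data. Members, the 16 gene lists and the words were chosen with earlier results of these data known, and CGATA after the sequences were seen. Named genes were the 12 strongest members in both replicates, up to 3 of each list, all in the developmental lists, and those at the extremes and thresholds. Lists were matched by symbol pattern and are not complete: beta-PheRS, for example, was not matched. No p-value was computed: there is 1 group, peaks are not replicates, and nothing but the spread between the 2 replicates could be measured.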

Additional observations from a re-analysis of the deposited data

How the results depend on the processing

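Over 12 alternatives, 48 recomputed values were counted as the same and 37 as moved, as follows. For all results but the number of members, the limit was the standard deviation between the 2 replicate lists. That limit rests on 2 values and was 0.0887 percentage points for Motif 1, so small shifts counted there. The number of members was judged by its ratio to the main 788. By that ratio, 614 with the conservative list and 989 with a head to head limit of 500 bp counted as the same. The range of values without replicate 1 or without replicate 2 was 483 to 693 members, 6.69% to 9.77% of class genes and 76.0% to 77.8% of summits upstream. The median signal was 82.7 to 105.8, from each replicate's own signals and so not on the pooled scale. Each replicate's list overlaps itself, so the share in both replicates was here only the overlap with the other replicate's list. It was 88.2% for members in the list of replicate 2 and 59.9% for those in the list of replicate 1. The spread of that share, 20.02 percentage points, came from the same 2 values. In those same lists the DRE share was 23.7% to 26.3%, that of Motif 1 4.35% to 4.47%, that of TAATTA 3.75% to 5.59%, and 50.9% to 57.3% of class genes with 3 or more CGATA had a member. The conservative list gave 8.57% of class genes, a median signal of 194.5, 77.4% upstream, 26.2% with the DRE, 4.56% with Motif 1 and 5.05% with TAATTA. The upper 50% by signal held 394 members, 90.1% of them in both replicates and 85.0% upstream, with 33.8%, 4.82% and 5.08% for the 3 words. With 1 summit per merged region the median signal was 156.7, 73.0% were upstream and Motif 1 was at 4.54%. Summits within 250 bp had a median of 156.5 and 4.43% with Motif 1. TSSs within 100 bp gave 72.8% upstream and 3.90% with Motif 1, a head to head limit of 500 bp 4.04% and TSSs of every biotype 4.38%. Words within 100 bp were at 27.7%, 6.85% and 11.0%. The conservative list and the upper 50% keep stronger peaks by construction, and the wider window holds more bases; the cause of the other shifts was not tested. No paired analysis was possible because the study has 1 group. Depth is unknown, so a class gene without a listed summit is not shown to be unbound.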

Other observations

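Some strong peaks at promoters of the same kind are in the ranked pooled list but not in the thresholded list used here. With a score of at least 830 and summits that met the rule, there were 31 such peaks at 27 genes, of 106 such peaks on the arms in all. Arm 3R held 16 of the 31, 2L 12, 2R 2 and 3L 1, and 0 overlapped a listed peak of either replicate. The strongest, named after their values were seen, were at osa, with a signal of 1546.2, kibra with 1280.7, Ubc6 with 1016.0, rump with 737.9 and CG42788 with 540.2. The DRE was within 50 bp of the summit in 5 of the 31. The summits of the 31 lay from 453 bp upstream to 163 bp downstream of the TSS. The reason for their place in these lists is not given in the sources used here. Their genes stand among the class genes without a listed summit in the comparisons above.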
